A study of Mus musculus with 14 samples.

Results

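The genes P2ry12, P2ry13, P2ry6, P2rx4, P2rx7, Gpr34, Entpd1 and Adora3 encode 7 cell-surface receptors and 1 cell-surface enzyme through which microglia sense extracellular nucleotides and related lipids. They were chosen by symbol, and all 8 were found among the 55335 genes measured. The data come from 14 single-cell RNA libraries of whole mouse spinal cord, taken at P115-120 days of age (days after birth). Cold perfusion, enzymatic dissociation at 37 °C and magnetic myelin removal came before capture with the 10x Chromium 3′ v3.1 kit, which counts transcript molecules as unique molecular identifiers (UMIs).

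The 4 groups differ in the transgene and in Clec7a, the gene for the C-type lectin receptor dectin-1. Non-transgenic mice (nTg, 3 libraries) carry neither change. Clec7aKO mice (4 libraries) are of the stock B6.129S6-Clec7atm1Gdb/J, which carries a targeted Clec7a allele. SOD1 mice (3 libraries) are of the stock B6SJL-Tg(SOD1*G93A)1Gur/J and carry a mutant human SOD1 transgene, a model of amyotrophic lateral sclerosis in which the transgene is expressed in many cell types. SOD1_Clec7aKO mice (4 libraries) carry both. Stock and genotype cannot be told apart in any of these comparisons. The labels do not say whether each library is 1 animal, so the spread between libraries may be partly technical.

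P2Y receptors couple to G proteins and P2X receptors are ion channels opened by ATP. P2ry12 and P2ry13 respond mainly to ADP, and P2ry12 draws microglial processes toward sites of injury, whereas P2ry6 responds to UDP and promotes phagocytosis. P2rx4 opens at low and P2rx7 at high ATP concentrations, the latter being a known trigger of the inflammasome. Gpr34 is a receptor for lysophosphatidylserine related in sequence to the P2Y12 group. Entpd1, the ectonucleotidase CD39, breaks ATP and ADP down toward AMP, and Adora3 is a receptor for adenosine, the product at the end of that chain.

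Among these genes P2ry12 lies beside P2ry13 and P2rx7 beside P2rx4, and the promoters of both pairs are shown because the members of each pair are compared with one another throughout. In GRCm38, P2ry13 (chr3:59207892-59210882, minus strand) ends 5389 bases from P2ry12 (chr3:59216272-59262871, minus strand). P2rx7 (chr5:122643911-122691432, plus strand) lies 16111 bases before P2rx4 (chr5:122707544-122729738, plus strand). The sequences run 5′ to 3′ on the gene's strand from 250 bases before to 50 bases after the start (RefSeq, GRCm38.p6). They cover chr3:59262936-59263235 and chr3:59210833-59211132 (minus strand), and chr5:122643677-122643976 and chr5:122707294-122707593 (plus strand). Capitals mark the motifs found. The other genes lie apart, P2ry6 at chr7:100937630-100974649 (minus strand), Gpr34 at chrX:13632089-13640858, Entpd1 at chr19:40612366-40741602 and Adora3 at chr3:105870858-105908926 (plus strand).
P2ry12: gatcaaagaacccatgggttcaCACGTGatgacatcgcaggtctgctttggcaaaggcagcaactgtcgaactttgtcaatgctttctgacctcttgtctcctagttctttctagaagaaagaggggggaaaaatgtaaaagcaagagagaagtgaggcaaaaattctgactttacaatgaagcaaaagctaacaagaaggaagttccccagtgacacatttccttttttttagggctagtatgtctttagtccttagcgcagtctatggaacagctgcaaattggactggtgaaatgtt
P2ry13: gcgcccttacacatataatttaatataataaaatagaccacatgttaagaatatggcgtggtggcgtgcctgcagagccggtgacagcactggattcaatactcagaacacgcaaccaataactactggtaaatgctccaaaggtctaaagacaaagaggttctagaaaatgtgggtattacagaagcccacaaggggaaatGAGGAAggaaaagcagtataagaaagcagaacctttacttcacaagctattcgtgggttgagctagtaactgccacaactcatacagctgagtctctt
P2rx7: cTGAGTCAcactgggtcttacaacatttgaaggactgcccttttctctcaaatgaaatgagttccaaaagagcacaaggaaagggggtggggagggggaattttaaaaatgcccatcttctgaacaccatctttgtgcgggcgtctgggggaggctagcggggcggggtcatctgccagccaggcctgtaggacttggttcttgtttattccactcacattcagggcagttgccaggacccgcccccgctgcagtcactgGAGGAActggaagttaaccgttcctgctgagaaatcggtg
P2rx4: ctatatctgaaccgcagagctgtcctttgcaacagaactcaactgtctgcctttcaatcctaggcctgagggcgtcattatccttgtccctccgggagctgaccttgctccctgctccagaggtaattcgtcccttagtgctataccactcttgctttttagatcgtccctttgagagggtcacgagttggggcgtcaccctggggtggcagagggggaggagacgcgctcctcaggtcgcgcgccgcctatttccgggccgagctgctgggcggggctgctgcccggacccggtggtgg

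The motifs searched, on both strands, were the PU.1 core GAGGAA, the AP-1 site TGANTCA, the interferon response element (GAAA, any 2 bases, GAAA) and the E-box CACGTG. Of 32851 RefSeq promoters of this length, 28.3% hold the PU.1 core, 7.81% the AP-1 site, 3.44% the interferon element and 7.15% the E-box. The P2ry12 window holds an E-box 228 bases before the start. The P2ry13 window holds a PU.1 core at -48. The P2rx7 window holds an AP-1 site at -249 and a PU.1 core 10 bases past the start. A second P2rx7 promoter on file (chr5:122650133-122650432, plus strand), not shown, has a PU.1 core 5 bases past its start. None of these letters was found in the P2rx4 window. In the other promoters on file, Adora3 has a PU.1 core at -28 and an AP-1 site at -98, and the second Entpd1 promoter has 2 PU.1 cores. These matches describe letters, not bound sites.

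After filtering, 89387 of 108892 barcodes were kept, and 51979 of them fell into 11 clusters named microglia-like from their markers, 1009 to 7522 per library. All 15 microglial markers were detected in these cells in every library, from Sall1 with a median of 122 CPM (UMIs per 1000000 UMIs of the cells summed) to C1qb with 7335 CPM. In 2 of the 11 clusters the 10 leading genes by fold held markers of another cell class and no microglial marker of the list, although all 15 were detected in both. Cluster 11 (2144 cells) was led by the haemoglobin genes Hba-a2, Hbb-bt, Hbb-bs and Hba-a1, and its cells had a median of 0.289 times the UMIs of their library's median cell. It made up a mean of 10.3% of the microglia-like cells in nTg, 7.20% in Clec7aKO, 2.76% in SOD1 and 1.97% in SOD1_Clec7aKO libraries. Cluster 6 (1612 cells), led by Igkc, Cd79a and MHC class II genes, made up 0.455%, 0.761%, 2.75% and 4.92%. Both are called by number only, and values without them are given beside the calls. Total UMIs ran from 28819852 to 141204910 per library. The median UMIs of a microglial cell ran from 7183 to 10325 in nTg libraries, from 5292 to 10769 in Clec7aKO, from 8874 to 21796 in SOD1 and from 9011 to 12669 in SOD1_Clec7aKO. Clec7a UMIs over all cells, the check of the labels, numbered 33 to 110 in Clec7aKO against 755 to 1767 in nTg libraries, and 74 to 240 in SOD1_Clec7aKO against 57449 to 101134 in SOD1 libraries. Xist exceeded Ddx3y in 4 libraries (nTg 1 and 3, Clec7aKO 3 and SOD1_Clec7aKO 4), and this order was taken as sex where sex was a covariate. No SOD1 library was among them, so sex and transgene are partly confounded in SOD1 against nTg. Of the barcodes, 1504 occurred in more than 1 library.

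In microglia with the SOD1 transgene, P2ry12, P2ry13, Gpr34, Entpd1 and Adora3 fell and P2rx4 rose on both Clec7a backgrounds. P2ry6 passed the test, higher, on the Clec7aKO background, and P2rx7 passed it on neither, both with TMM scaling. With Clec7a present, 6 of 8 genes were called at an adjusted p under 0.05 (1 higher, 5 lower), where 32.4% of all 16703 genes tested were called, 19.6% higher and 12.8% lower. On the Clec7aKO background 7 of 8 were called (2 higher, 5 lower) against 46.4% of all genes, 25.5% higher and 20.9% lower. Levels below are CPM of microglial UMIs scaled by TMM. Tests are edgeR's quasi-likelihood test on UMIs summed per library, Benjamini-Hochberg adjusted over all genes. The libraries of the compared groups did not overlap for all 8 genes in SOD1 against nTg (3 higher, 5 lower), where 29.2% of all genes were apart and higher and 24.4% apart and lower. On the Clec7aKO background 1 gene was apart and higher and 4 apart and lower, against 21.2% and 15.3% of all genes. Without clusters 6 and 11, a choice made after seeing the data, the calls of the 8 genes were again 6 and 7, with P2ry12 at log2 -2.01 and -2.17 and P2rx4 at 0.95 and 1.10.

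The scale matters for small differences. Where only the library size was used, with no TMM factors (also chosen after seeing the data), the median log2 change of all genes was -0.44 in SOD1 against nTg and -0.51 on the Clec7aKO background. The split of all genes was then 8.85% higher and 34.6% lower, and 11.2% higher and 47.0% lower. The 5 falls and the rise of P2rx4 kept their calls in both comparisons (P2ry12 log2 -2.46 and -2.67, P2rx4 0.53 and 0.61). P2ry6 and P2rx7 did not keep theirs, as given beside each. In these pooled cells, a change in the mix of microglial states and a change within a state both move a level.

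**Figure D1:**
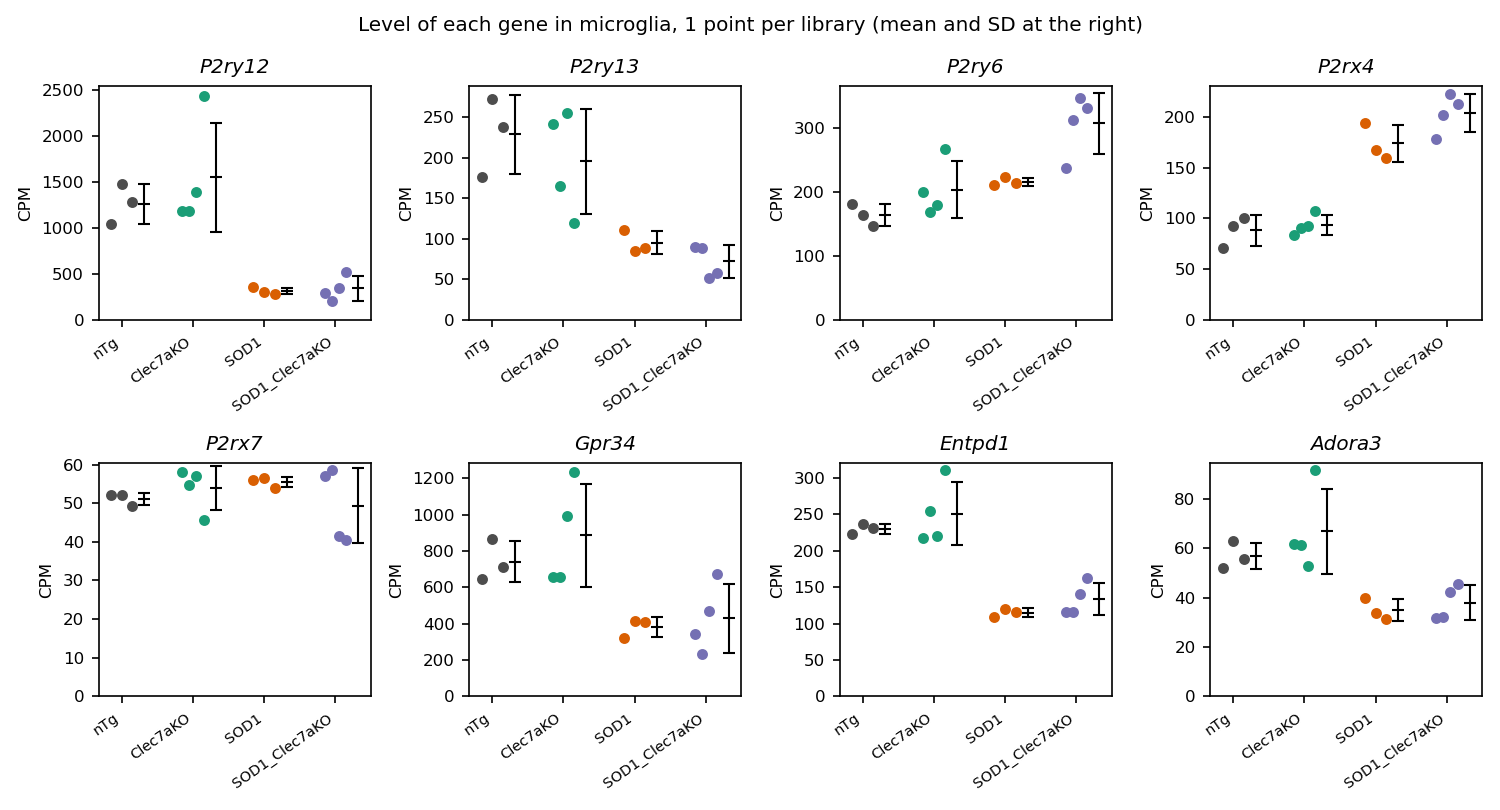
Level of each of the 8 genes in microglia (y axes, CPM scaled by TMM) in every library (points) of the 4 groups (x axis), with the group mean and SD beside the points. P2ry12 sits between 207 and 523 CPM in the 7 libraries with the transgene, below all 7 without it (1040 to 2432), and P2rx4 shows the opposite order.

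P2ry12 was the most abundant of the 8 in healthy microglia. It stood at 1040, 1475 and 1280 CPM in the nTg libraries and at 354, 299 and 286 CPM in the SOD1 libraries. In Clec7aKO it stood at 1187, 1188, 1396 and 2432 CPM, and in SOD1_Clec7aKO at 298, 207, 347 and 523 CPM. No library with the transgene reached the lowest one without it, on either Clec7a background. P2ry12 fell 4.04-fold in SOD1 against nTg (log2 -2.01, SE 0.33, adjusted p = 0.00041, edgeR). It fell 4.51-fold in SOD1_Clec7aKO against Clec7aKO (log2 -2.17, SE 0.29, adjusted p = 3.8e-05, edgeR). Of the 8 genes it had the largest log2 decrease in both comparisons.

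Its neighbour P2ry13, the other ADP receptor, stood at 176, 272 and 238 CPM in nTg and at 112, 85.5 and 88.3 CPM in SOD1. The Clec7aKO libraries held 242, 165, 256 and 120 CPM, and the SOD1_Clec7aKO libraries 90.5, 88.8, 52.1 and 57.6 CPM. Groups with and without the transgene did not overlap in either comparison, although Clec7aKO 4, at 120 CPM, lay close to SOD1 1. P2ry13 fell 2.40-fold in SOD1 against nTg (log2 -1.27, SE 0.29, adjusted p = 0.0043, edgeR). On the Clec7aKO background it fell 2.71-fold (log2 -1.44, SE 0.25, adjusted p = 0.00039, edgeR).

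P2ry6, the UDP receptor, was not called lower in either comparison. It stood at 182, 165 and 148 CPM in nTg and at 211, 224 and 214 CPM in SOD1, with no overlap between the groups. The log2 difference of 0.39 (SE 0.19) did not pass the test (adjusted p = 0.12, edgeR). It was past the threshold when the library number was a covariate (adjusted p = 0.016) and when only these 2 groups were fitted (adjusted p = 0.037). The Clec7aKO libraries held 200, 169, 179 and 268 CPM and the SOD1_Clec7aKO libraries 239, 313, 348 and 332 CPM. Clec7aKO 4 overlapped the transgenic range, and P2ry6 rose by 0.59 on the log2 scale there (SE 0.16, adjusted p = 0.0082, edgeR). By library size alone neither difference passed, at log2 -0.06 with Clec7a present (adjusted p = 0.75, edgeR) and 0.08 on the Clec7aKO background (adjusted p = 0.62, edgeR). The rise and the separation of the groups thus hold on the TMM scale and not on that one.

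Gpr34 was the second most abundant of the 8 in libraries without the transgene, and in SOD1 2 and 3 and all 4 SOD1_Clec7aKO libraries it exceeded P2ry12. It stood at 647, 865 and 712 CPM in nTg and at 319, 414 and 410 CPM in SOD1, and the groups did not overlap. It fell 1.94-fold (log2 -0.96, SE 0.33, adjusted p = 0.040, edgeR). Without any 1 of the 3 SOD1 or 3 nTg libraries, or with sex as a covariate, the call was lost (adjusted p 0.059 to 0.13), at log2 values of -1.04 to -0.82 without a library and -0.78 with sex. With library number as a covariate the log2 value was -0.51 and still called (adjusted p = 0.048, edgeR). On the Clec7aKO background the levels were 660, 655, 991 and 1236 CPM without and 342, 231, 470 and 674 CPM with the transgene. SOD1_Clec7aKO 4 overlapped the lowest Clec7aKO libraries, and the fall of 2.06-fold was called in every setting tried (log2 -1.04, SE 0.29, adjusted p = 0.0091, edgeR).

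Entpd1, the enzyme that removes ATP and ADP, stood at 223, 237 and 231 CPM in nTg and at 109, 121 and 116 CPM in SOD1, a 2.00-fold fall (log2 -1.0, SE 0.17, adjusted p = 0.00048, edgeR). The Clec7aKO libraries held 217, 255, 220 and 311 CPM and the SOD1_Clec7aKO libraries 116, 117, 141 and 162 CPM. The fall there was 1.88-fold (log2 -0.91, SE 0.15, adjusted p = 0.00018, edgeR), with no overlap in either comparison.

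Adora3, the adenosine receptor, was among the 2 least abundant genes. It stood at 52.1, 62.7 and 55.4 CPM in nTg and at 39.9, 33.8 and 31.5 CPM in SOD1. It fell 1.62-fold (log2 -0.69, SE 0.20, adjusted p = 0.017, edgeR) with no overlap. Without SOD1 2, SOD1 3 or nTg 2 the call was lost (adjusted p 0.061 to 0.069), at log2 values of -0.66 to -0.61. With library number as a covariate it was -0.49 and still called (adjusted p = 0.032, edgeR). The Clec7aKO libraries held 61.5, 61.1, 52.7 and 91.5 CPM, against 31.6, 32.0, 42.4 and 45.3 CPM in SOD1_Clec7aKO. That fall, of 1.76-fold, was called in every setting tried (log2 -0.82, SE 0.17, adjusted p = 0.0017, edgeR).

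The ion channel P2rx4 went the other way. It stood at 71.1, 92.8 and 101 CPM in nTg and at 194, 167 and 160 CPM in SOD1. The Clec7aKO libraries held 84.0, 90.1, 92.8 and 107 CPM and the SOD1_Clec7aKO libraries 178, 202, 222 and 213 CPM. Every library with the transgene was above every library without it. P2rx4 rose 1.97-fold in SOD1 against nTg (log2 0.98, SE 0.16, adjusted p = 0.00035, edgeR). It rose 2.18-fold on the Clec7aKO background (log2 1.12, SE 0.14, adjusted p = 1.9e-05, edgeR).

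P2rx7, the gene next to it, stood at 52.1, 52.1 and 49.3 CPM in nTg and at 56.1, 56.4 and 53.9 CPM in SOD1. These ranges did not overlap but lay close together, and the log2 difference of 0.12 (SE 0.15) did not pass the test (adjusted p = 0.59, edgeR). Clec7aKO held 58.1, 54.7, 57.1 and 45.8 CPM and SOD1_Clec7aKO 57.0, 58.6, 41.4 and 40.4 CPM. The groups overlapped, with a log2 difference of -0.13 (SE 0.13, adjusted p = 0.45, edgeR). By library size alone P2rx7 was at log2 -0.33 with Clec7a present (adjusted p = 0.17, edgeR), the opposite direction, and was called lower on the Clec7aKO background, at -0.64 (adjusted p = 0.0049, edgeR). Of the neighbouring channels, then, P2rx4 was called in both comparisons under every setting tried, and P2rx7 in neither on the TMM scale; the difference between the genes was not tested.

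The median log2 change of the 8 genes was -0.83 in SOD1 against nTg, beside 0.01 over all genes tested, and -0.86 on the Clec7aKO background, beside 0.00. The summed level of the 8 genes had a median of 3395 CPM in nTg and 1202 CPM in SOD1 (unscaled, no test). P2ry12 made up a median of 45.5% of their UMIs in nTg, 44.4% in Clec7aKO, 21.3% in SOD1 and 21.4% in SOD1_Clec7aKO. For every 100 P2ry12 UMIs there were 6.29 to 7.87 P2rx4 UMIs in nTg, 4.41 to 7.59 in Clec7aKO, 54.8 to 56.0 in SOD1 and 40.6 to 97.4 in SOD1_Clec7aKO. Both genes alone already separated the libraries by transgene, so the separation of this ratio adds nothing to theirs.

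SOD1 microglia held more UMIs per cell in 2 of 3 libraries than any nTg library, so UMIs per cell were compared as well. P2ry12 had 12.5 to 16.6 UMIs per microglial cell in nTg libraries and 3.14 to 5.54 in SOD1, still apart. P2ry13 had 2.12 to 3.08 and 0.988 to 1.71 UMIs per cell, apart as well. P2rx4 had 0.797 to 1.30 and 1.72 to 3.1 UMIs per cell, also apart. Gpr34 (7.43 to 9.21 against 2.83 to 7.95), Entpd1 (2.03 to 2.99 against 0.966 to 2.25) and Adora3 (0.538 to 0.717 against 0.354 to 0.610) overlapped on this scale. P2ry6 overlapped too, at 1.42 to 2.19 against 1.87 to 4.14, as did P2rx7, at 0.447 to 0.638 against 0.497 to 1.04. The same values for the Clec7aKO background follow, and the difference between backgrounds per cell was not tested. P2ry12 (10.9 to 15.7 in Clec7aKO against 1.63 to 4.90 in SOD1_Clec7aKO), Entpd1 (1.81 to 3.38 against 0.913 to 1.52) and Adora3 (0.531 to 0.809 against 0.251 to 0.438) were apart and lower. P2rx4 (0.622 to 1.19 against 1.58 to 2.30) and P2ry6 (1.56 to 2.24 against 2.45 to 3.59) were apart and higher. P2ry13 (0.695 to 2.82 against 0.539 to 0.961), Gpr34 (6.04 to 10.9 against 1.81 to 6.32) and P2rx7 (0.266 to 0.724 against 0.379 to 0.605) overlapped. The median UMIs of a microglial cell ran from 5292 to 10769 in Clec7aKO and from 9011 to 12669 in SOD1_Clec7aKO libraries. The share of all genes apart per cell is not given for either comparison. The separations on this scale are therefore not read as particular to the 8 genes.

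The share of microglia in which a gene was seen was compared after thinning each cell to 2000 UMIs, which left out 522 of 6013 nTg, 500 of 9695 Clec7aKO, 421 of 15473 SOD1 and 343 of 20798 SOD1_Clec7aKO cells. P2ry12 was seen in 89.9% ± 3.03 of cells in nTg (SD, n = 3) and 39.0% ± 3.62 in SOD1 (SD, n = 3). The unthinned shares were 96.1% and 80.6%. Gpr34 was seen in 77.9% and 47.5% of thinned cells, Entpd1 in 41.5% and 19.5%, P2ry13 in 41.7% and 16.8%, and Adora3 in 11.9% and 6.84%. P2rx4 was seen in 18.7% ± 2.17 of nTg and 26.0% ± 2.75 of SOD1 cells, and P2ry6 in 29.8% and 30.4%. P2rx7 was seen in 11.6% and 9.83%, an order opposite to its TMM-scaled CPM from which nothing is read. In ependymal cells of similar depth (median 8757 UMIs, against 10141 in microglia), which should lack P2ry12, a thinned cell held it in at most 3.95% of cells per library.

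Cells with no UMI of P2ry12, P2ry13 or Gpr34 made up 2.77% ± 1.15 of nTg and 2.40% ± 1.34 of Clec7aKO microglia at 2000 UMIs, and 32.0% ± 1.22 of SOD1 and 36.3% ± 8.29 of SOD1_Clec7aKO microglia. Cells with a P2rx4 UMI and no P2ry12 UMI made up 1.86% in nTg, 1.33% in Clec7aKO, 16.5% in SOD1 and 18.2% in SOD1_Clec7aKO. These shares are descriptions with no test, and at this depth a missing UMI does not show a missing transcript.

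**Figure D2:**
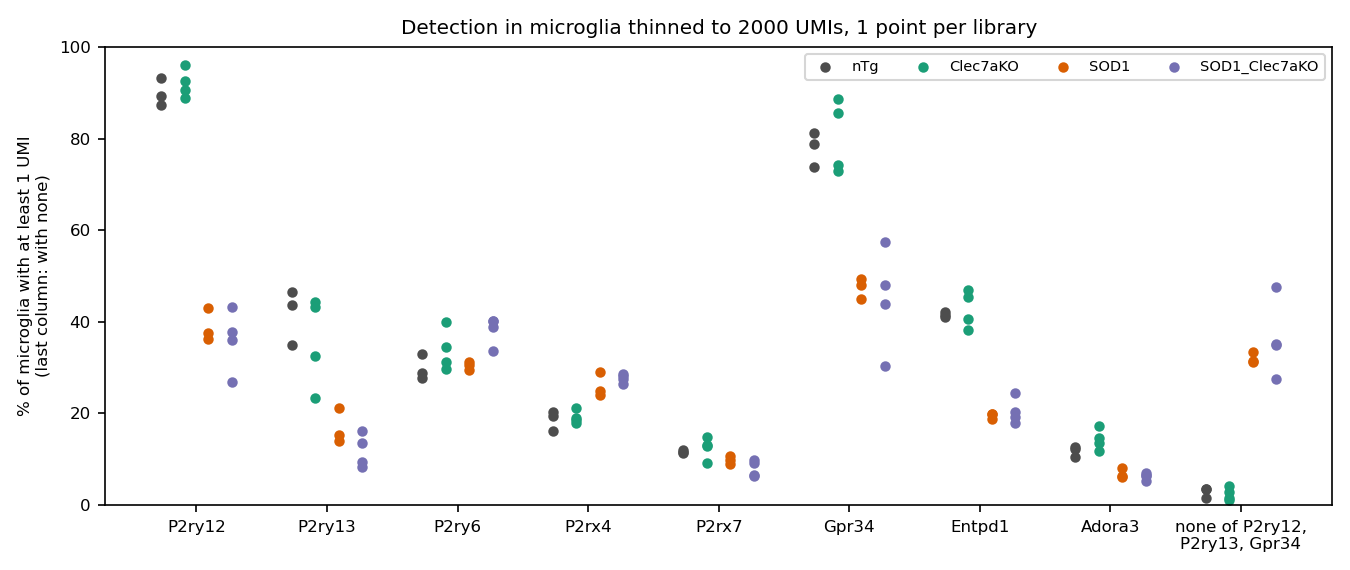
Share of microglia (y axis, percent) with at least 1 UMI of each gene after thinning to 2000 UMIs, per library (points). At the right is the share with none of P2ry12, P2ry13 and Gpr34. P2ry12 detection averages 89.9% in nTg and 92.0% in Clec7aKO, against 39.0% in SOD1 and 36.0% in SOD1_Clec7aKO.

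Other marker lists moved with the transgene. All 10 genes of a disease-associated microglia list (Apoe, Axl, Csf1, Cst7, Gpnmb, Igf1, Itgax, Lpl, Spp1 and Trem2) rose in both comparisons, from a summed 3369 to 4979 CPM in nTg to 69878 to 102411 CPM in SOD1. Of 10 further homeostatic genes, 6 fell in SOD1 against nTg (Crybb1, Sall1, Selplg, Siglech, Slc2a5 and Tmem119) and Fcrls rose. Their summed level was 9944 to 10253 CPM in nTg and 5711 to 5871 CPM in SOD1. A list of 10 genes induced by warm dissociation fell too: Atf3, Egr1, Fos, Hspa1a and Jun were called lower, none higher, and the sum was 27662 to 31270 CPM in nTg and 11945 to 12543 CPM in SOD1. Genes of border-associated macrophages summed to 90.4 to 109 CPM in nTg and 122 to 140 CPM in SOD1, with Cbr2, Ms4a7 and Pf4 higher, and monocyte genes to no more than 9.70 CPM in either group. Endothelial genes summed to 63.3 to 115.4 CPM in nTg and 127 to 157 CPM in SOD1, with Flt1 higher and Cdh5 lower. T and NK cell genes summed to 0.491 to 4.07 CPM and 4.10 to 6.94 CPM, with Klrb1c higher. In SOD1_Clec7aKO against Clec7aKO, 5 of 7 endothelial genes were lower (Tek, Slco1a4, Cdh5, Pecam1 and Cldn5) and Flt1 higher, with sums of 48.5 to 91.5 CPM in Clec7aKO and 59.6 to 189.5 CPM in SOD1_Clec7aKO. The monocyte genes Plac8 and Ccr2 were lower there (sums of 2.77 to 17.1 and 0.948 to 2.43 CPM), and Klrb1c, Pf4 and Ms4a7 higher. Of the dissociation list 7 genes were lower there, and of the homeostatic list 7 were lower and Fcrls higher. The part of these lists in the changes of the 8 genes was not tested. Summed over libraries, no gene of these lists was at 0 UMIs. In single libraries some were, such as 7 of 8 T and NK cell genes in Clec7aKO 3 and 4 in nTg 2. In nTg 2, 1 disease-associated gene was at 0 as well. Only 5 of 8 macrophage, 4 of 5 monocyte and 6 of 8 T and NK cell genes were tested.

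The 8 genes were left out of the clustering, so their levels among the 11 microglial clusters describe states defined by other genes. P2ry12 had its highest medians in cluster 8 (1708 CPM) and cluster 3 (1509 CPM), both with Crybb1, Slc2a5 and Tmem119 among their leading genes, and cluster 8 also with Xist and Tsix. These clusters held 35.5% and 44.2% of nTg microglia but 0.5% and 4.9% of SOD1 microglia. It was lowest in cluster 5 (55.4 CPM), led by Mmp12, Cxcl1 and Gpnmb, and in cluster 4 (116 CPM), led by Gpnmb and Apoc4. These medians pool unequal groups, since clusters 4 and 5 rest on the 7 transgenic libraries, cluster 3 on 14 and cluster 8 on 12. Within the SOD1 libraries alone P2ry12 was 1146 CPM in cluster 3, 1037 CPM in cluster 8, 155 CPM in cluster 4 and 68.9 CPM in cluster 5 (means, n = 3). Clusters 4 and 5 held 12.8% and 15.1% of SOD1 microglia and 0.1% of nTg microglia each. The range of medians from highest to lowest cluster was far narrower for P2rx4 (187 to 69.9 CPM), P2rx7 (72.6 to 41.0 CPM) and P2ry6 (278 to 99.3 CPM). The low ends of P2rx4 and P2ry6 were those of cluster 11. Without it the lowest medians were 118 CPM for P2rx4 (cluster 3) and 148 CPM for P2ry6 (cluster 4).

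Clusters 1, 3, 8 and 11 held at least 20 cells in every SOD1 and nTg library, and levels within them are unscaled CPM. P2ry12 and Gpr34 were lower in SOD1 than in nTg libraries, without overlap, in all 4, and Entpd1 in all but cluster 8. The share of all genes apart within a cluster is not given. By library size alone the median log2 change of all genes in pooled microglia was -0.44 in SOD1 against nTg. Falls of about that size on the unscaled level are therefore not read as particular to these genes. In cluster 3 P2ry12 was 1605 ± 218 CPM in nTg (SD, n = 3) and 1146 ± 137 CPM in SOD1 (SD, n = 3), whose libraries did not overlap. In cluster 1, led by the chemokine genes Ccl12 and Ccl2, it was 1007 ± 201 and 542 ± 42.7 CPM, again apart. Entpd1 was 288 and 208 CPM in cluster 3, and 209 and 136 CPM in cluster 1, apart in both. Gpr34 was 916 and 704 CPM in cluster 3, and 686 and 511 CPM in cluster 1, also apart. P2rx4 was 103 ± 18.4 CPM in nTg and 120 ± 17.6 CPM in SOD1 within cluster 3, where the libraries overlapped. In cluster 8, with 20 to 41 cells per SOD1 library, P2ry12 was 1729 and 1037 CPM and Gpr34 1006 and 630.4 CPM, while Entpd1 overlapped (307 to 320 against 160 to 322 CPM). In cluster 11 P2ry12 was 1184 and 556 CPM, Gpr34 733 and 479 CPM and Entpd1 182 and 125 CPM. P2rx4 overlapped in clusters 1 and 8 too, and was apart and higher in cluster 11 (18.1 to 41.6 against 74.9 to 145 CPM). For SOD1_Clec7aKO against Clec7aKO, P2ry12 was apart and lower in cluster 1 (335 to 744 against 771 to 1854 CPM) and overlapped in cluster 3 (644 to 1724 against 1483 to 2737 CPM). The other genes and clusters are not given for that background. The within-cluster values were not tested.

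**Figure D3:**
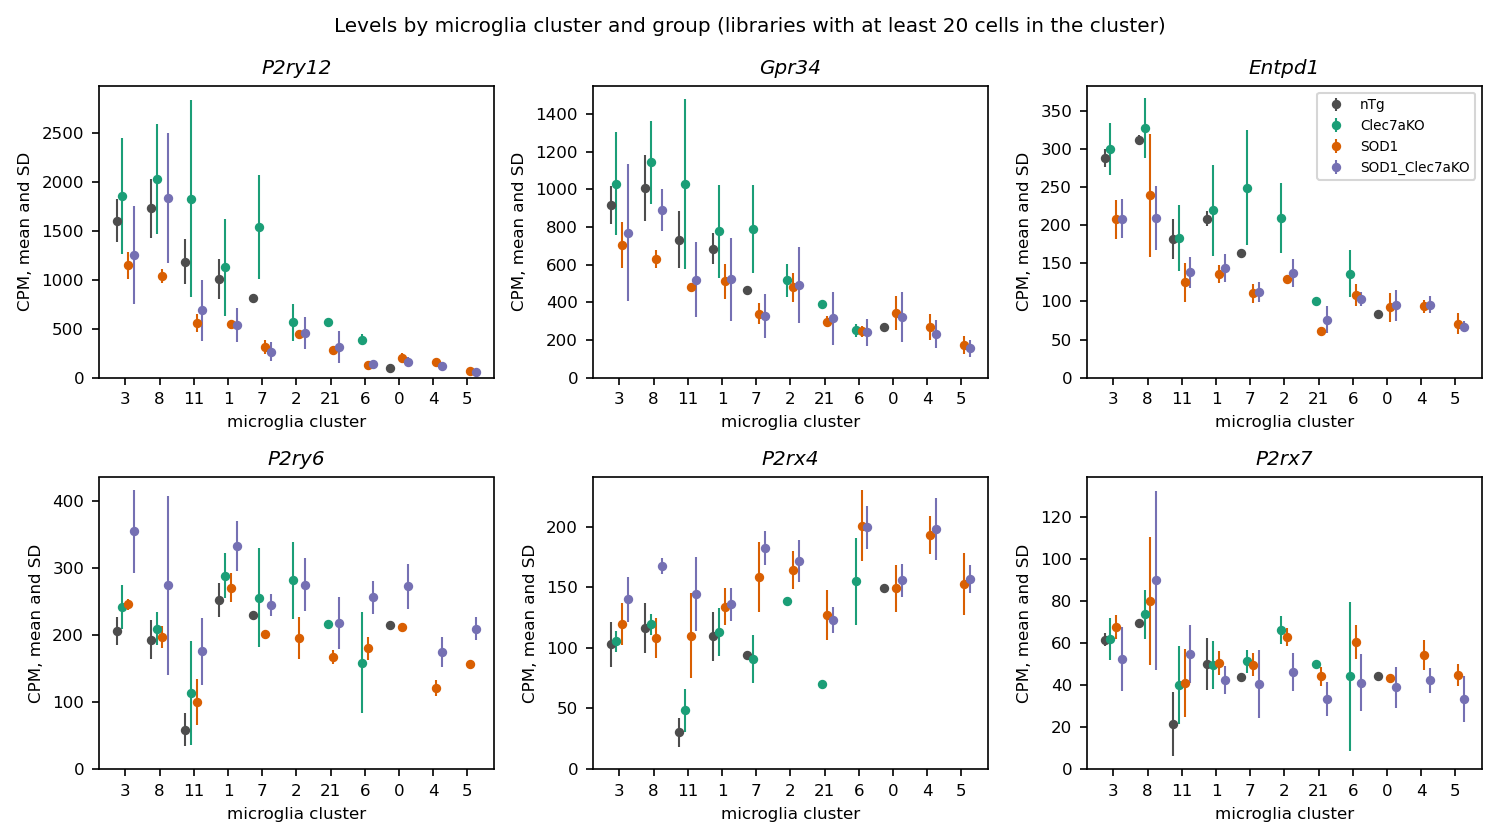
Levels (y axes, CPM) of P2ry12, Gpr34, Entpd1, P2ry6, P2rx4 and P2rx7 in each microglial cluster (x axis) by group, as means with SD, without a bar where only 1 library had 20 cells. P2ry12 runs from 1708 CPM in cluster 8 to 55.4 CPM in cluster 5 (medians), whereas P2rx7 stays between 41.0 and 72.6 CPM.

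Loss of Clec7a was asked about separately, in disease and in health; these comparisons share libraries with those above. In SOD1_Clec7aKO against SOD1, 0 of 8 genes were called by edgeR at an adjusted p under 0.05, where 0.018% of all genes were (3 of 16703). DESeq2 called 0 of 8 too, and its share over all genes is not given. By edgeR, 11.3% of all genes had an unadjusted p under 0.05. At an unadjusted p under 0.05 there was 1 of 8, P2ry6. The SOD1_Clec7aKO libraries held 239 to 348 CPM of P2ry6 and the SOD1 libraries 211 to 224 CPM, without overlap, as in 4.1% of all genes higher and 4.83% lower (log2 0.51, SE 0.18). The adjusted p was 0.44 (edgeR). The other 7 overlapped, with log2 differences from -0.40 (P2ry13) to 0.23 (P2rx4).

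In Clec7aKO against nTg, 0 of 8 were called by edgeR, where 0.0239% of all genes were. By edgeR 0 of 8 had an unadjusted p under 0.05, against 2.48% of all genes. DESeq2 called 0 of 8, and its share over all genes is not given here either. All 8 overlapped between these groups, with log2 differences from -0.23 (P2ry13) to 0.31 (P2ry6). The effect of the transgene with and without Clec7a was compared as an interaction. edgeR called 0 of 8 genes and 0% of all genes (2.06% at an unadjusted p under 0.05, 0 of 8 members). The interaction of P2ry12 was -0.16 on the log2 scale (SE 0.42) and that of P2rx4 was 0.14 (SE 0.21). Those of P2ry13 and P2ry6 were -0.17 (SE 0.38) and 0.20 (SE 0.25).

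Across cell classes, levels are medians over libraries of unscaled CPM. Free RNA in droplets can leave microglial transcripts in other cells, and remaining doublets can too. Each level was therefore divided by the sum of 6 microglial transcripts, among them C1qa, C1qb, C1qc, Cx3cr1 and Csf1r, and set against the same ratio in microglia, so that a value near 1 is the level microglial RNA would leave. Where a value comes from was not tested. Microglia had the highest median for P2ry12 (848 CPM), Gpr34 (657), Entpd1 (195), P2ry13 (114) and Adora3 (50.3), among classes present in at least 7 libraries. In microglia P2ry6 stood at 214, P2rx4 at 131 and P2rx7 at 51.3 CPM. The median ratio of P2ry12, Gpr34, P2ry6 and Adora3 did not exceed 3 times that of microglia in any class.

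Border-associated macrophages, the macrophages of vessels and meninges, had the highest medians of P2rx7 (251 CPM, range 129 to 424), P2ry6 (267 CPM) and P2rx4 (211 CPM) in 11 libraries with at least 20 such cells. For P2rx7 every one of these lay above every microglial library (31.5 to 70.4 CPM). The 6 microglial transcripts summed to 15777 to 30091 CPM in these macrophages and to 27411 to 39012 CPM in microglia, so a ratio to them is no background measure in this class. For P2ry6 and P2rx4 the ranges of these macrophages and of microglia overlapped. These medians pool unequal groups, since 7 of the 11 libraries carry the transgene and 1 is nTg. Compared within a library, the macrophages were higher in 11 of 11 for P2rx7, 11 of 11 for P2rx4 and 10 of 11 for P2ry6 (Clec7aKO 1 was the exception). By group, mean P2rx4 was 205 CPM in these macrophages and 108 CPM in microglia of Clec7aKO, 200.03 and 155 CPM in SOD1, and 238 and 165 CPM in SOD1_Clec7aKO. Mean P2rx7 was 288 and 63.1 CPM in Clec7aKO, 216 and 49.2 CPM in SOD1, and 171 and 40.5 CPM in SOD1_Clec7aKO. No test between groups was run in this class, and only 1 nTg library held 20 of these cells. In the clustering with the 8 genes allowed, this class held clusters of 198, 186 and 163 cells. The 198 were led by Mrc1 and Pf4, the 186 by MHC class II genes with Elane and Mpo, and the 163 by MHC class II genes with Mrc1. The class ranked second was neutrophil for the 186 and microglia for the 163. Levels within these clusters are not given.

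Outside the macrophages, P2rx7, P2rx4 and Entpd1 exceeded the level of microglial RNA. P2rx7 reached 49.0 CPM in oligodendrocyte precursors, 63.7 times the microglial ratio and close to the microglial level, 17.9 CPM in astrocytes (11.9 times) and 17.0 CPM in ependymal cells (21 times). P2rx4 reached 22.1 CPM in endothelial cells (12.8 times) and 15.3 times in oligodendrocyte precursors. Entpd1, which on vessels limits platelet activation, stood at 84.3 CPM in endothelial cells, 79.2 to 92.6 over the 14 libraries and 33.3 times the microglial ratio. It also stood at 24.0 CPM in oligodendrocyte precursors (10.2 times). Lower ratios of at least 3 were those of P2rx7 in endothelial cells (7.65) and in T and NK cells (3.37), of P2rx4 in neurons (8.37), ependymal cells (8.10), astrocytes (5.08) and pericytes (3.31), and of Entpd1 in pericytes (3.22). These medians pool groups that can differ. For P2rx4 in astrocytes the ratio was 18.1 to 25.6 in nTg and 5.03 to 27.4 in Clec7aKO libraries. With the transgene it was 1.24 to 5.13 in SOD1 and 1.32 to 4.60 in SOD1_Clec7aKO libraries, in part near the level microglial RNA would leave. Neutrophils, present in only 2 libraries, had ratios of 55.6 for Entpd1, 11.1 for P2ry13 (26 UMIs) and 4.79 for P2rx4 (8 UMIs).

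**Figure D4:**
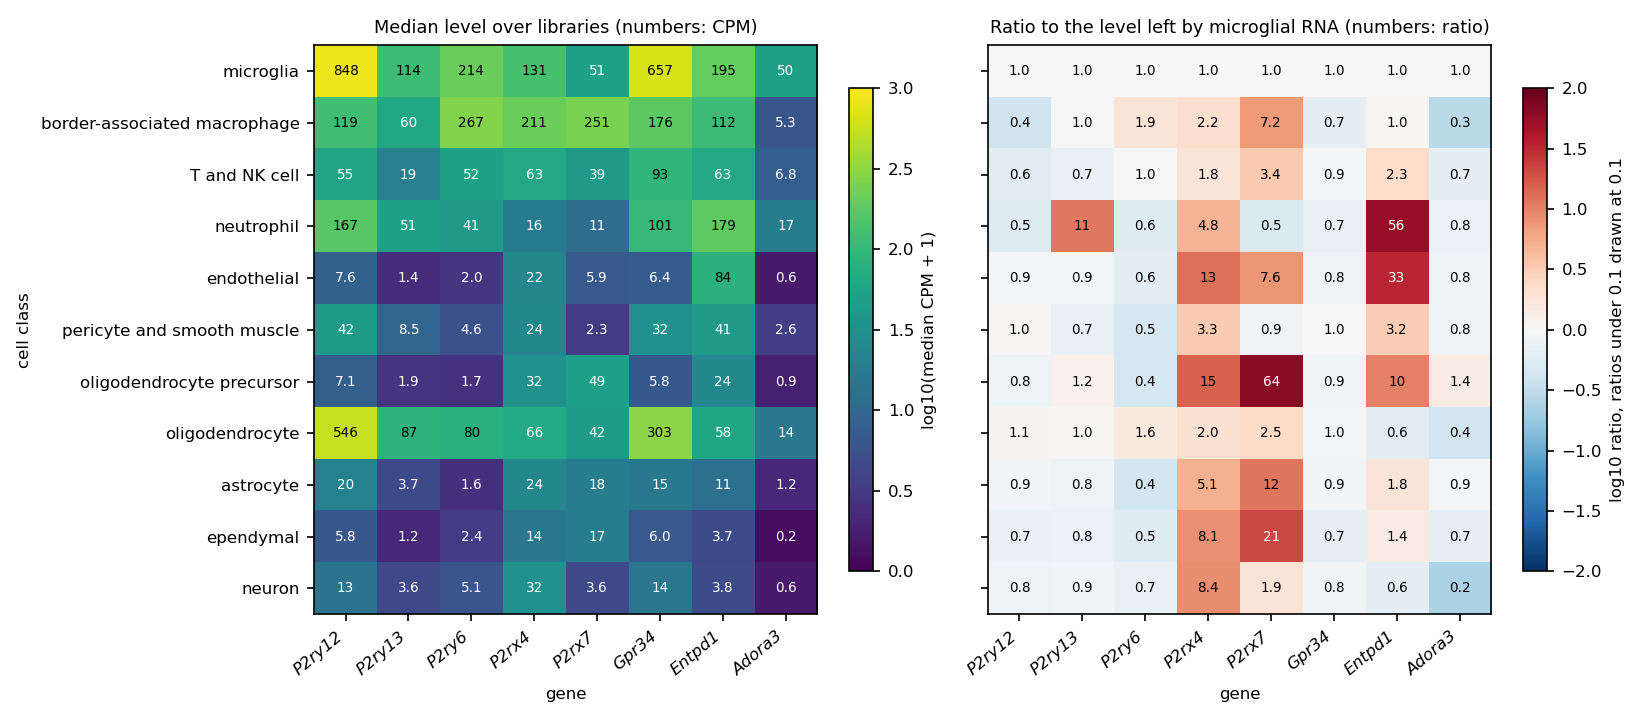
Median level over libraries (left, CPM) and ratio to the level that microglial RNA would leave (right) for the 8 genes (columns) in each cell class (rows). Entpd1 in endothelial cells, P2rx7 in oligodendrocyte precursors and P2rx4 in endothelial cells stand far above a ratio of 1, whereas P2ry12, Gpr34, P2ry6 and Adora3 do not pass 3 in any class.

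Endothelial Entpd1 did not pass the test. Its log2 change in SOD1 against nTg was -0.07 (SE 0.11, adjusted p = 0.999, edgeR), with overlapping libraries at 91.4, 80.4 and 88.0 CPM in nTg and 83.8, 79.2 and 80.3 CPM in SOD1. Whether this differs from the fall in microglia was not tested. In endothelial cells P2ry6 and Gpr34 were called higher (2 of 7 tested, where 1.03% of all genes were). P2ry6 rose by 3.28 on the log2 scale (adjusted p = 0.0095, edgeR) and Gpr34 by 1.66 (adjusted p = 0.029, edgeR), at ratios to microglial RNA of 0.43 and 0.72 for P2ry6 and 0.58 and 0.74 for Gpr34 in nTg and SOD1. Without SOD1 1, nTg 1 or nTg 2 the P2ry6 call was lost, and without SOD1 1, SOD1 2 or any nTg library the Gpr34 call. Leaving out 1 library at a time, the log2 values ran from 2.94 to 3.53 for P2ry6 and from 1.44 to 1.84 for Gpr34. On the Clec7aKO background P2ry6 rose by 2.62 (adjusted p = 0.0075, edgeR) as 1 called gene of 7, against 0.939% of all genes called higher. Its ratios to microglial RNA there were 0.43 to 0.72 in Clec7aKO and 0.56 to 1.18 in SOD1_Clec7aKO. In endothelial cells the 6 microglial transcripts summed to 105 to 155 CPM in nTg and 632 to 1488 CPM in SOD1. On the Clec7aKO background the sums were 143 to 429 and 536 to 1678 CPM. They moved with the calls, and their part in them was not tested.

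In astrocytes 5 of 8 genes were called higher in SOD1 against nTg (P2ry12, P2ry13, P2ry6, Gpr34 and P2rx7), against 18.1% of all genes, and 7 of 8 on the Clec7aKO background, against 18.5%, where P2rx4 and Adora3 were added. The 6 microglial transcripts summed to 201 to 327 CPM in nTg and 1301 to 9430 CPM in SOD1 astrocytes, and to 169 to 661 CPM in Clec7aKO and 1781 to 10611 CPM in SOD1_Clec7aKO astrocytes. They moved with the calls, and their part in them was not tested. The median ratio of P2ry12, P2ry6, Gpr34 and Adora3 was below 3 in this class, as given above. The class also pools 2 clusters whose mix differed by group. Cluster 20, led by S100a6, A2m, Gfap and C3 with 0.295 times the UMIs of a library's median cell, made up a mean of 10.0% of astrocytes in nTg and 9.44% in Clec7aKO, against 53.1% in SOD1 and 54.5% in SOD1_Clec7aKO. Cluster 19, led by Slc7a10 and Gjb6, held the rest. The P2ry12 call was lost without SOD1 1 or nTg 3, and on the Clec7aKO background without SOD1_Clec7aKO 1 or 2 or Clec7aKO 2 or 3. P2rx7 stood at 12.7, 14.9 and 11.4 CPM in nTg and at 25.7, 23.8 and 26.7 CPM in SOD1 astrocytes (log2 1.02, SE 0.22, adjusted p = 0.0023, edgeR). After subtracting the share that microglial RNA would leave, it was 12, 14.2 and 11 CPM in nTg and 13.1, 21.9 and 24.0 CPM in SOD1, where SOD1 1 lay below nTg 2. Within cluster 19 P2rx7 was 12.1, 14.6 and 11.5 CPM in nTg and 22.9, 16.9 and 25.3 CPM in SOD1, and within cluster 20 it was 17.3, 20.7 and 10.1 CPM (3 to 7 UMIs) and 28.0, 34.1 and 27.9 CPM. The SOD1 and nTg libraries were apart in both clusters, on the unscaled level, with no test and no share over all genes. On the Clec7aKO background P2rx7 overlapped in both. In cluster 19 it was 10.4 to 17.8 CPM in Clec7aKO and 15.9 to 19.4 CPM in SOD1_Clec7aKO (without library 4, at 16 cells). In cluster 20 it was 0 to 29.2 and 17.4 to 37.7 CPM. After the subtraction it was 9.57 to 17.5 and 15.3 to 20.3 CPM in the whole class, overlapping too. Astrocyte P2rx4 rose from 17.1 to 68.9 CPM on the Clec7aKO background (log2 1.70, SE 0.33, adjusted p = 0.00085, edgeR). Adora3 was called at log2 2.80 (adjusted p = 0.011, edgeR) on 0 to 6 UMIs per Clec7aKO and 2 to 10 per SOD1_Clec7aKO library. Its ratios to microglial RNA were 0.82, 1.01, 1.91 and 3.41 in SOD1_Clec7aKO, the last on 3 UMIs. After the same subtraction P2rx4 was 9.15 to 19.1 CPM in Clec7aKO and 9.64, 28.8, 20.0 and 93.8 CPM in SOD1_Clec7aKO, and the groups overlapped. In ependymal cells 0 of the genes tested were called by edgeR with the transgene, against 0.901% of all genes, and 0 on the Clec7aKO background, against 1.47%. Gpr34 came nearest (adjusted p = 0.055), and 1 gene was called in SOD1 against nTg without SOD1_Clec7aKO 4, Clec7aKO 1, 2 or 3, and on the Clec7aKO background without Clec7aKO 1. Oligodendrocyte precursors also had 0 called (1.37% and 4.06% of all genes), as had pericytes and smooth muscle (0.105% and 0.329%).

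Of 58 further purinergic genes (receptors, ectoenzymes, adenosine handling, ATP release, signalling partners and neighbouring genes), 45 were tested in microglia, of which 7 rose and 6 fell in SOD1 against nTg, a median log2 change of -0.11. Over all genes 19.6% were called higher and 12.8% lower, so these counts lie close to the background. On the Clec7aKO background 9 rose and 13 fell (median 0.04), beside 25.5% and 20.9% of all genes. By library size alone the counts were 3 higher and 19 lower, and 4 higher and 24 lower. Enpp1, an ectoenzyme that also breaks down ATP, rose by 2.15 (4.14 to 18.4 CPM, adjusted p = 1.0e-06, edgeR). Abhd12, the main lysophosphatidylserine lipase and so a partner of Gpr34, rose from 418 to 740 CPM. Pnp, a purine nucleoside phosphorylase, fell from 309 to 184 CPM. Adcy7 rose by 0.69, and Adk, adenosine kinase, rose by 0.53 with adjusted p = 0.045. By library size alone Abhd12, Adcy7 and Adk were not called, and P2ry1 was called lower. Without any 1 SOD1 or nTg library the Adk call was lost (adjusted p 0.054 to 0.16).

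P2ry14, the UDP-sugar receptor next to P2ry12, rose from 0.535 to 2.17 CPM (adjusted p = 0.00038, edgeR). P2ry1 (log2 -1.46, adjusted p = 0.077), Ada (-0.61, 0.56) and Kcnk13, the potassium channel that acts with P2ry12 (0.25, 0.40), did not pass the test. Without SOD1 3, Ada was at -1.56, and without SOD1 2 at -0.27, neither past the test. The 5′-nucleotidase gene Nt5e, with 77 UMIs, was not tested. Med12l, which holds P2ry12 and P2ry13 on the opposite strand, fell by 1.41, and Cask, which holds Gpr34, fell by 1.22. Exons of Med12l overlap those of P2ry12 but not P2ry13, and exons of Cask do not overlap those of Gpr34. Whether counting used strand is not given in the sources used here, so reads of overlapping exons may not be told apart. The exons of Adora3 and Tmigd3 overlap on the same strand, so strand use would not separate their reads. Tmigd3, which overlaps Adora3 on its strand, did not pass in SOD1 against nTg (adjusted p = 0.12) and rose by 1.32 on the Clec7aKO background from under 1 CPM.

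The genes whose centred log2 CPM over the 14 libraries lay nearest each member were sought among 7768 genes with at least 10 CPM. P2ry12 was nearest to Cdkn1c (root mean square difference 0.242) and Gm10790 (0.252), and P2ry13 to Pld1 (0.211) and Gm37472 (0.217). Gpr34 was nearest to Ier5 (0.184) and Gm42908 (0.190), Entpd1 to Srsf2 (0.124) and Lbr (0.126), and Adora3 to Cyb561a3 (0.118) and Vrk2 (0.125). P2rx4 was nearest to Cfap410 (0.0781) and Qars (0.0952), P2rx7 to Ap2b1 (0.0759) and Aldh3a2 (0.0842), and P2ry6 to Idnk (0.102) and Homer3 (0.108). No member was among another's 2 nearest. Within the 7 transgenic libraries alone, Gm10790 for P2ry12 was the only one of these 16 to recur for the same member (Srsf2 was then among the 2 nearest to Adora3).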

How the data were processed

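Droplet counts of RNA were analysed from 14 libraries in 4 groups taken from the labels. The authors deposited, per the file headers and the labels, whole-number UMI counts per gene and cell barcode, not normalized. Per the submitters' processing notes Cell Ranger, Seurat, DESeq2 and the build mm10 were used, and the matrix headers name software version 3.0.2. Cell calling, the annotation and strand use are not given in the sources used here.

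A barcode was kept with 500 or more genes, 1000 or more UMIs and no more than 15% of UMIs from mitochondrial genes. Doublets were removed by a Scrublet-type score per library (0.8% expected per 1000 barcodes): 7127 barcodes were shallow, 4963 mitochondrial and 7415 doublets. Cells were clustered (scanpy 1.11.5, 2000 variable genes without the 8 members, 30 components, Leiden at 1.0) and named by marker lists. A class was used in a library with at least 20 of its cells.

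For each class, the UMIs of a library were added up and the sums tested with edgeR 4.0.16 in R 4.3.3 (quasi-likelihood, TMM, filterByExpr, all libraries, 1 term per group). A p-value was adjusted over all genes tested. The SE is the absolute log2 fold change over the root of F. The 8 genes were named in every comparison. Of the pathway list, called genes with at least 10 CPM and a fixed set of neighbours were named (some items are not reported here), and in other classes genes that passed the test or had a ratio to microglial RNA of at least 3. Members and lists were chosen with earlier results of these data known. The tests were checked on simulated data, but the settings and outcome are not given here, so nothing is read from that check. The SD values given are the spread between libraries, whereas the SE belongs to the fitted contrast.

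Alternatives were DESeq2 1.42.0, other scaling and filters, clustering with the 8 genes allowed among the variable genes, and clustering at another resolution. When allowed, 0 of the 8 genes were among the variable genes, so that clustering did not use them and could not show a dependence on them. Deeper cells, doublets kept, sex or library number as covariates, a replicate block and leaving out each library were alternatives too. Leaving out clusters 6 and 11, and scaling by library size alone, were added after seeing the data. Numbers shared between groups come from the titles and did not pair the libraries.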

Additional observations from a re-analysis of the deposited data

Results flagged for a closer look

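P2ry12 stood at 2432 CPM in microglia of Clec7aKO 4, far above the other 3 Clec7aKO libraries (1187 to 1396 CPM). Its gap to the nearest library, over the range of the group, exceeded the limit of Dixon's test. Of 16 sets of 4 libraries examined (8 genes in 2 groups) it was the only one past that limit, which chance passes in about 1 in 20 sets. The same library had the highest Gpr34, Entpd1, Adora3, P2ry6 and P2rx4 and the lowest P2ry13 and P2rx7 of its group. Without Clec7aKO 4, the fall of P2ry12 and its call in SOD1_Clec7aKO against Clec7aKO remained. SOD1_Clec7aKO 3 and 4 had the lowest P2ry13 (52.1 and 57.6 CPM) and P2rx7 (41.4 and 40.4 CPM) of their group. Clec7aKO 4 and these have the library numbers 16, 13 and 15, and no other number is above 12. At Leiden 0.5 an unnamed cluster of 500 cells held 286, 125 and 71 of their cells. The part of this in the Clec7a comparisons was not tested.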

How the results depend on the processing

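Across all settings the falls of P2ry12, P2ry13, Entpd1 and the rise of P2rx4 kept their direction and call in both transgene comparisons, and Gpr34 and Adora3 did so on the Clec7aKO background. The lost calls in SOD1 against nTg stand beside Gpr34 and Adora3 above. By library size alone, with no TMM factors, P2rx7 was -0.33 and P2ry6 -0.063 in SOD1 against nTg, and P2ry12 -0.0079 and Adora3 -0.032 in SOD1_Clec7aKO against SOD1. Kcnk13 was then -0.20 and, on the Clec7aKO background, -0.34, Ada there -0.015, and the list of further purinergic genes had 3 higher and 19 lower, and 4 higher and 24 lower. That scale moves the median of all genes down, as given above. Leaving out clusters 6 and 11 changed no call of the 8 genes. With library number as a covariate, P2rx7 was -0.078 in SOD1 against nTg, and the list of further purinergic genes had 11 lower instead of 6, or 10 with only the 2 groups fitted. The share of all genes called lower in these settings is not given, so these counts are not read as a result about the list.

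The replicate block, which rests on numbers that did not pair the libraries (9 of 19 same-numbered pairs correlated above 0.1, median 0.0804), left 6 and 7 genes called. In SOD1_Clec7aKO against SOD1 it gave P2ry12 -0.16, Adora3 -0.023 and Gpr34 -0.12, and library number gave -0.23, -0.068 and -0.25, where the main values were positive. In Clec7aKO against nTg the block gave P2ry12 -0.0093 and Gpr34 -0.014. In the interaction, library number gave P2ry13 0.11 and Entpd1 -0.068. None of these passed the test, and the cause was not tested.

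Leaving out 1 library at a time, SOD1_Clec7aKO against SOD1 ran from -0.14 to 0.31 for P2ry12 and from -0.13 to 0.38 for Gpr34. Clec7aKO against nTg ran from -0.010 to 0.42 for P2ry12 and from -0.048 to 0.19 for P2rx4. The interaction ran from -0.42 to 0.15 for P2ry12, -0.37 to 0.12 for Gpr34 and -0.22 to 0.066 for Adora3. Calls ran from 0 to 2 in endothelial cells (SOD1 against nTg) and from 0 to 1 in ependymal cells in both comparisons. With 3 or 4 libraries a group, such small differences were not resolved.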
